A study of Mus musculus with 5 samples.

Results

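The interferon-stimulated genes and the genes of MHC class I antigen presentation were described across 5 arrays of liver and tumor endothelium and of cultured hepatoma cells. The members were 39 genes chosen by name, 30 antiviral genes and 9 class I genes, out of 37074 gene names on the array. Each gene was read by the probe with the highest mean signal over the 5 arrays, and all 39 genes were found. Gene expression was measured on a 60-mer mouse array with 1 colour (Cy3) and 1 array for each condition. LSEC stands for liver sinusoidal endothelial cells from mouse liver, and TECs are tumor endothelial cells, taken from tumors of the human hepatoma lines KYN-2 and HAK-1B and of the mouse line Hepa1-6. The fifth array held Hepa1-6 cancer cells from culture. The labels name no treatment for any group.

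The labels give the strain C57BL/6 for LSEC and for all TECs and C57L for Hepa1-6 cells. The methods name female 6-week-old mice of C57BL/6 or of the nude strain BALB/c nu/nu, which lacks mature T cells, and do not say which strain carried which tumor. The mice were inoculated with cancer cells in the left liver lobe, and CD31-positive cells were taken with magnetic beads. A bead isolate can hold other CD31-positive cells and cancer cells, and the number of animals behind an array is not stated. The paper measured the purity of the LSEC and TEC isolates by flow cytometry. It called contamination by cancer cells inevitable and took genes related to them out of its TEC genes. The paragraph of the methods on the array names Huh-7 where the labels name HAK-1B. The 3 TEC arrays were on 1 slide, and LSEC and Hepa1-6 cells had separate slides. In a comparison with either of them, group and slide cannot be told apart.

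Interferons are secreted proteins that bind receptors on the cell surface, and the receptors signal through Janus kinases to STAT proteins. A complex that holds STAT2 and IRF9 binds an interferon-stimulated response element (ISRE) in the promoters of antiviral genes, whereas the gamma-activated sequence (GAS) serves the response to interferon-gamma. MHC class I molecules show peptides of the cell's own proteins to cytotoxic T cells, and interferons raise their genes too. LSECs are known to present antigens on class I molecules.

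The promoter stretches below are shown because these response elements are what the antiviral genes are known to share, and the choice of members did not use sequence. Promoters of 300 bases, from 250 before the start of a gene to 50 after it, were read from the table of RefSeq promoters, build GRCm38.p6, for 32 of the 39 members. No entry was found for Mx1, Mx2, Usp18, Rtp4, Parp14, Oas2 and Tap2. The ISRE was searched as GAAANNGAAA on both strands, which reads TTTCNNTTTC on the other strand, and the GAS as TTCNNNGAA, which reads the same on both. Each stretch runs 5′ to 3′ on the strand of its gene and ends before the start, and capitals mark the ISRE letters in either orientation.
Ifit1 (chr19:34640765-34640833, + strand): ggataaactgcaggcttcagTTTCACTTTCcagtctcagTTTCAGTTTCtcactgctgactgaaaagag
Ifit3 (chr19:34583353-34583436, + strand): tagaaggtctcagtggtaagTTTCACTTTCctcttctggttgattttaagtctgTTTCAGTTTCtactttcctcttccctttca
Isg15 (chr4:156200855-156200916, - strand): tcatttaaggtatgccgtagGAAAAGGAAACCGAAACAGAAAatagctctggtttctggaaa
Oas1a (chr5:120907526-120907565, - strand): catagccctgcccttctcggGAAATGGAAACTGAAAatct
Stat2 (chr10:128270256-128270305, + strand): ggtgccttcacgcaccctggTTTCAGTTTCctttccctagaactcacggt
B2m (chr2:122147528-122147577, + strand): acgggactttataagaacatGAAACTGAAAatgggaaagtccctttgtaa
Isg15 and Oas1a hold overlapping matches, Ifit1 and Ifit3 hold 2 separate ones, and B2m is the class I gene with a match.

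The ISRE was found in 12 of the 24 antiviral members with a promoter and in 1 of the 8 class I members with one. It is held by 3.44% of all 32851 promoters in that table, and 3.99% of all 27025 genes hold it in any promoter. The GAS was found in 8 of 24 antiviral members and in 1 of 8 class I members, the immunoproteasome gene Psmb8, and 9.55% of all genes hold it. In 2 members an ISRE and a GAS match share bases. Neither motif was found in the window of 13 members, among them Irf7, Cmpk2, H2-K1 and H2-D1. These matches are a description of letters and not of binding.

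Compared to LSEC, most members lay lower in TECs. A level is the log2 of the normalized signal of 1 probe, so levels are compared between arrays and not between genes. Values for the TECs stand in the order HAK-1B, Hepa1-6, KYN-2, and a log2 ratio of -1 is a signal 2 times lower. By sign alone 32 of 39 members were below LSEC in all 3 TECs, 26 of 30 antiviral and 6 of 9 class I genes. The same was true of 28.4% of all 26905 genes kept, those flagged present on at least 1 of the 4 endothelial arrays. With each array scaled to its 75th percentile in place of quantile normalization, the count was 28 of 39, because Isg15 and Psmb10 in HAK-1B TEC, Ifitm3 in Hepa1-6 TEC and Isg20 in KYN-2 TEC then lay just above LSEC. Above LSEC in all 3 TECs were 4 members, Usp18, Mx1, Irf8 and Psmb8, beside 27% of all genes, and Usp18 in KYN-2 TEC turned to -0.012 with normexp background correction.

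All 39 members were flagged present on the LSEC array, unlike the genes at large. Among the 18466 genes flagged present on LSEC, a background added after the data were seen, 37.5% were below LSEC in all 3 TECs. The 3 comparisons share 1 LSEC array, so a deviation of that array would move all of them together.

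Counted by a ratio of 2, 11 of 39 members were lower in HAK-1B TEC (18% of all genes), 19 of 39 in Hepa1-6 TEC (22.1%) and 15 of 39 in KYN-2 TEC (18.3%). Higher by a ratio of 2 were 0 members in HAK-1B TEC (17.5% of all genes), 1 in Hepa1-6 TEC, which was Oas1a (25%), and 0 in KYN-2 TEC (16.9%). Past a ratio of 2 in all 3 TECs were 6 members lower, all antiviral, beside 8.27% of all genes, and 0 members higher, beside 5.55%. Among genes present on LSEC, as all members were, the shares lower by a ratio of 2 were larger, 19.8%, 29.1% and 19.6% in the TECs. The share lower in all 3 was 11.6% there. No share of higher genes was taken over the genes present on LSEC. By the rule of size in the methods, which asks for a Z-score of at least 2 beside a ratio of 1.5, or the mirror of both, 0 members were lower (0.647% of all genes) and 0 higher (0.353%) in all 3 TECs. Whether a member passed in all 3 TECs thus depended on the rule of size.

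The median log2 ratio of the antiviral members was -0.89, -1.04 and -0.90 in the TECs. That of the class I members was -0.47, -0.88 and -0.69. The medians over all genes kept were -0.0023, 0.090 and -0.046, and over genes present on LSEC -0.099, -0.27 and -0.12. Scaling to the 75th percentile moved the median of all genes in Hepa1-6 TEC to 0.43, and the antiviral median there was -1.03. In that setting 26.8% of the calls over all genes in Hepa1-6 TEC were lower, against 46.9% with quantile normalization. The Hepa1-6 TEC array also had 78.1% of its probes well above background, against 54.1% to 57.6% on the other endothelial arrays.

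**Figure D1:**
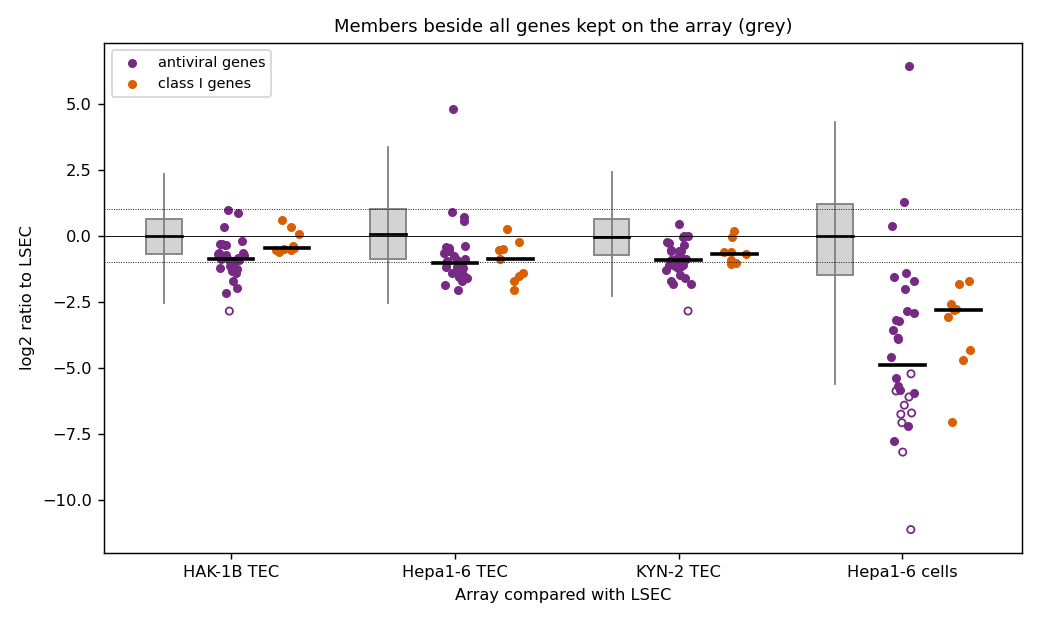
Log2 ratio to LSEC of the 30 antiviral and 9 class I genes on each array, 1 point a gene, with the median as a thick bar. Grey boxes and lines span the middle and the 5th to 95th percentile of all genes kept, dotted lines mark a ratio of 2, and open points were not well above background on that array. The antiviral medians lie at -0.89, -1.04 and -0.90 in TECs and at -4.89 in Hepa1-6 cells.

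The 6 members past a ratio of 2 in all 3 TECs were Ifit2, Ifit3, Oas2, Cmpk2, Rtp4 and Stat2. Rtp4, a chaperone of receptors that also inhibits flaviviruses, was at 14.33 in LSEC, at 12.17, 12.29 and 12.62 in the TECs and at 7.14 in Hepa1-6 cells. Its mean log2 ratio over the 3 TECs was -1.97 ± 0.24 (SD over tumor lines, n = 3), the lowest mean of the 39 members. All 3 TECs were close to each other and far from both LSEC and the cancer cells. The probe lies at chr16:23613668-23613727 of mm9, the build of the array design.

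Ifit2 and Ifit3 belong to a family of proteins that bind viral RNA and block translation. Ifit3 was at 11.12 in LSEC and at 9.89, 9.89 and 9.91 in the TECs, and its probe was not well above background in Hepa1-6 cells. The TECs differed less for Ifit3 than for any other member, with a mean log2 ratio of -1.22 ± 0.011 (SD, n = 3). Ifit2 was at 10.10 in LSEC, at 8.94, 8.80 and 8.30 in the TECs and at 7.20 in Hepa1-6 cells. Ifit1, of the same family, was lower by a ratio of 2 in Hepa1-6 TEC alone, with log2 ratios of -0.90, -1.55 and -0.29. The Ifit2 and Ifit3 probes lie at chr19:34650244-34650303 and chr19:34663105-34663164 of mm9.

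Cmpk2 encodes a mitochondrial nucleotide kinase next to Rsad2 in the genome. It was at 9.95 in LSEC, at 8.53, 8.55 and 8.77 in the TECs and at 6.74 in Hepa1-6 cells. Rsad2, whose product viperin makes a chain-terminating nucleotide, had log2 ratios of -0.95, -1.16 and -0.58 in the same TECs. The dimmer Rsad2 probe, well above background on the LSEC and TEC arrays, gave log2 ratios of -1.22, -1.29 and -1.05. By that probe Rsad2 was past a ratio of 2 lower in each TEC, as Cmpk2 was.

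Oas2 makes the short oligoadenylates that switch on RNase L. It was at 13.32 in LSEC and at 12.19, 11.88 and 11.52 in the TECs, and not well above background in Hepa1-6 cells. Stat2, a subunit of the ISRE-binding complex, was at 12.80 in LSEC, at 11.56, 11.20 and 11.20 in the TECs and at 9.24 in Hepa1-6 cells. Each of these genes has a dimmer probe that was not lower in all 3 TECs. The other Oas2 probe gave log2 ratios of -0.29, -1.56 and 0.22, and the other Stat2 probe -0.87, 0.43 and -0.93. Averaged over all probes of a gene, Oas2 and Stat2 were no longer past a ratio of 2 in all 3 TECs.

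In a fit of limma to the 3 TECs against LSEC, with 2 residual degrees of freedom, the single array of LSEC was taken to vary as the TECs do, and after Benjamini-Hochberg adjustment 0 members and 0 of 26905 genes had an adjusted p under 0.05. The smallest adjusted p of limma was 0.402 over all genes and 0.453 over the members, for Rtp4 with a log2 difference of -1.97 (SE 0.48). Without adjustment, limma gave a p under 0.05 for 4 members, Rtp4, Stat2, Cmpk2 and Oas2, and for 9.18% of all genes. With a single LSEC array and no gene past the threshold, no ratio of a member passed this test. The SDs given over the TECs leave out any spread of LSEC.

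**Figure D2:**
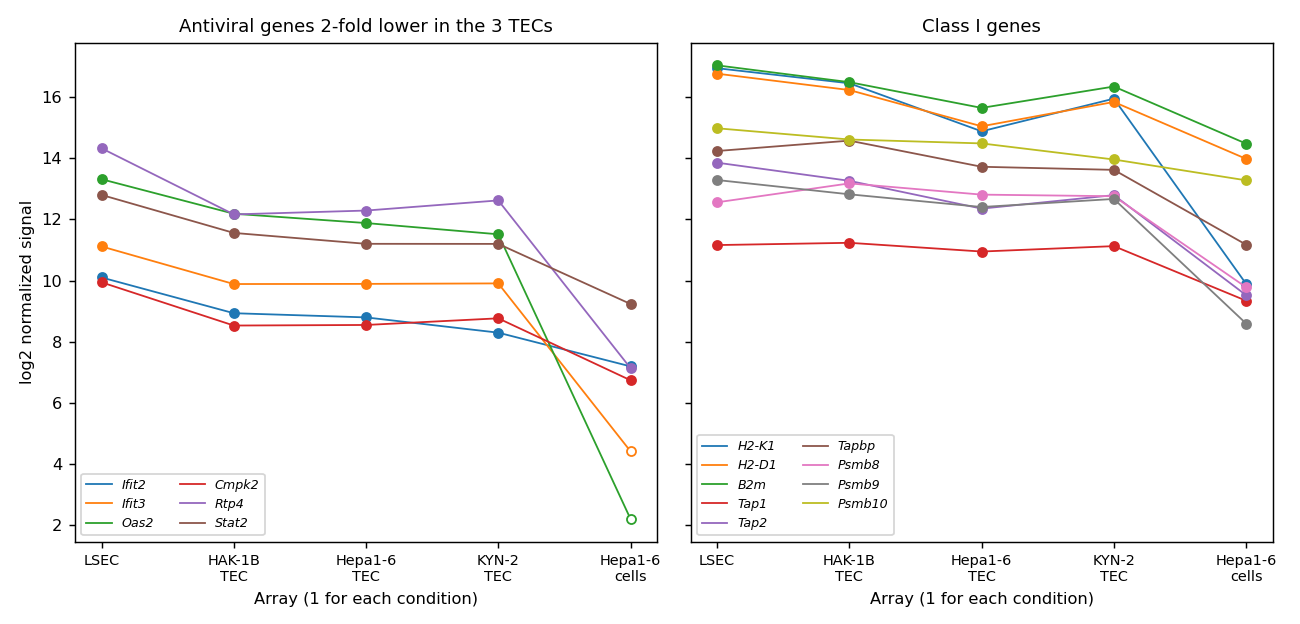
Log2 normalized signal of the 6 antiviral genes past a ratio of 2 in all 3 TECs (left) and of the 9 class I genes (right) on each of the 5 arrays, 1 array a condition. Open points were not well above background, lines join the points of 1 gene, and levels of different genes are not comparable. Each antiviral gene shown is highest in LSEC, and H2-K1, H2-D1 and B2m are lower in Hepa1-6 TEC than in the other TECs.

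The transcription factors and the sensor were lower in most comparisons. Irf7, the factor that amplifies type I interferon production, was at 16.41 in LSEC, at 15.28, 15.42 and 15.12 in the TECs and at 8.65 in Hepa1-6 cells, just short of a ratio of 2 in Hepa1-6 TEC (log2 ratio -0.99). Irf1, a factor that interferon-gamma raises through a GAS, had log2 ratios of -1.72, -1.60 and -0.88. For Irf9, which gives the ISRE-binding complex its specificity, they were -0.64, -1.16 and -0.91. Ifih1, which encodes the double-stranded RNA sensor MDA5, had log2 ratios of -0.21, -0.90 and -0.88, and its other probe gave -0.65, -2.89 and 0.33, with the sign turned in KYN-2 TEC. Irf8, a factor of myeloid and dendritic cells, was the exception at 13.17 in LSEC and 14.03, 13.73 and 13.62 in the TECs. A dimmer Irf8 probe gave the opposite sign, with log2 ratios of -1.30, -1.93 and -2.08, so the direction of Irf8 depends on the probe.

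Of the ubiquitin-like system, Isg15, the modifier itself, was at 14.41 in LSEC, at 14.10, 13.87 and 13.89 in the TECs and at 8.49 in Hepa1-6 cells. Usp18, the protease that removes it and dampens the interferon receptor, was at 10.40, 10.73, 11.12, 10.42 and 11.68. The modifier thus lay slightly lower in the TECs and far lower in the cancer cells, whereas its protease was at least as high in the cancer cells as in LSEC.

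Among the large GTPases, Gbp2 and Gbp3, which attack the vacuoles of intracellular pathogens, had log2 ratios of -0.92, -1.86 and -1.09 and of -0.95, -1.52 and -1.15 in the TECs. Mx2, a GTPase against viruses, had -1.34, -0.74 and -0.22. Mx1, its neighbor, was at 8.80 in LSEC and at 9.79, 9.70 and 8.82 in the TECs, so the pair pointed in opposite directions. The second Mx1 probe gave log2 ratios of 0.69, 1.16 and -0.03.

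In the OAS family, Oasl1, a regulator of Irf7 translation, was lowest in HAK-1B TEC, with log2 ratios of -1.97, -0.66 and -0.56. Its other probe gave -1.16, 0.18 and 0.32. Oasl2 had -0.87, -1.50 and -0.95, and Oas3 had -0.29, -0.86 and -0.33. Both membrane factors were lower in every TEC by less than a ratio of 2, Bst2, which tethers budding virions, by -0.85, -0.55 and -0.57 and Ifitm3, which blocks virus entry, by -0.63, -0.38 and -0.87. Scaling to the 75th percentile moved Ifitm3 in Hepa1-6 TEC to 0.025.

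The other effectors were lower in all 3 TECs, Isg20 in KYN-2 TEC only by quantile normalization. Parp14, an ADP-ribosyltransferase, had log2 ratios of -0.73, -1.69 and -1.48, and Ifi44 had -0.34, -1.08 and -1.09. Xaf1, a promoter of apoptosis, had -0.68, -0.96 and -0.77, and Ifi35 had -0.71, -0.42 and -1.08. Isg20, an exonuclease of RNA, was the nearest to LSEC with -0.33, -0.44 and -0.06.

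**Figure D3:**
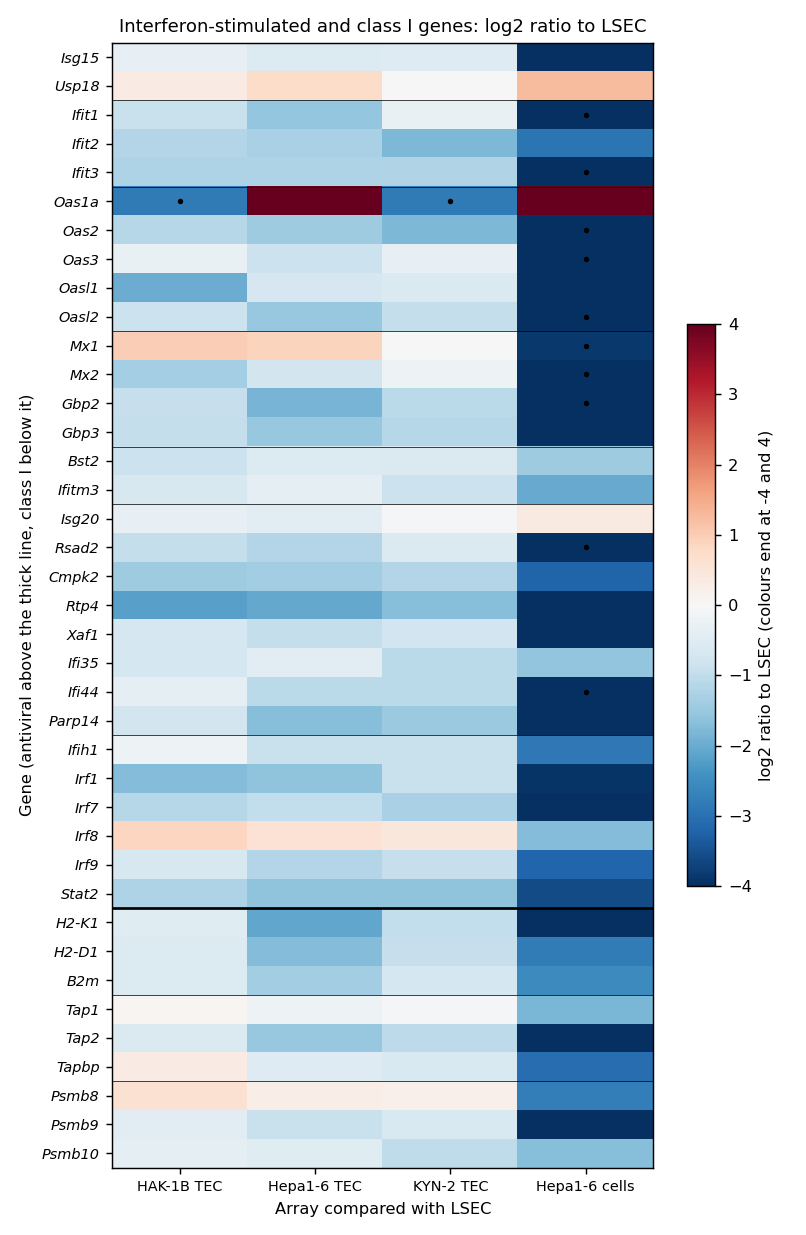
Log2 ratio to LSEC of all 39 members (rows, grouped by role) on the 3 TEC arrays and the array of Hepa1-6 cells (columns), with blue lower and red higher than LSEC. Black dots mark probes not well above background on that array. The 36 members lower by a ratio of 2 in Hepa1-6 cells stand in blue in the last column, and Oas1a is red there and in Hepa1-6 TEC.

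Of all members, Oas1a differed most between the TECs. It was at 5.08 in LSEC, 9.87 in Hepa1-6 TEC and 11.51 in Hepa1-6 cells, and its probe was not well above background in HAK-1B TEC and KYN-2 TEC. Oas1a was thus high on both arrays that involve the Hepa1-6 line and low on the other 3. Usp18 was also highest on these arrays, by far less, at 11.12 in Hepa1-6 TEC and 11.68 in Hepa1-6 cells, against 10.40 to 10.73 elsewhere. The Oas1a signal in Hepa1-6 TEC was at least 48.4-fold higher than in HAK-1B TEC and at least 37.4-fold higher than in KYN-2 TEC. These are bounds, set against the lowest normalized signal of a probe well above background on the dim array. Against LSEC, Oas1a was at least 1.75-fold lower in HAK-1B TEC and at least 1.35-fold lower in KYN-2 TEC, so its place among the members counted as 2-fold lower there rests on values below background.

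In Hepa1-6 cells Oas1a was 3.11-fold above Hepa1-6 TEC. Its probe, at chr5:121346735-121346794 of mm9, lists transcripts of Oas1a and of Oas1g, so the signal could come from either. The markers of hepatocytes went with it only in part. Alb was at 12.97 in LSEC, at 6.51, 15.54 and 8.85 in the TECs and at 13.94 in Hepa1-6 cells. Of the 9 hepatocyte markers on the array 7, 8 and 9 were well above background in the TECs and 4 in Hepa1-6 cells. The log2 of their summed signal was 15.50 in LSEC, 11.36, 16.18 and 13.32 in the TECs and 14.63 in Hepa1-6 cells. In Hepa1-6 cells 7 of these 9 markers were lower than in LSEC by a ratio of 2, beside 31% of all genes. The median log2 ratio of the 9 was -3.70, and Alb (0.97) and Fgb (2.49) were higher. Whether RNA of cancer cells or hepatocytes had a part in the Oas1a signal was not tested.

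The class I heavy and light chains were lowest among endothelial arrays in Hepa1-6 TEC. H2-K1, a heavy chain, was at 16.95 in LSEC, at 16.45, 14.88 and 15.95 in the TECs and at 9.90 in Hepa1-6 cells. H2-D1, the other classical heavy chain, was at 16.77, 16.23, 15.05, 15.84 and 13.98. B2m, the light chain that all class I molecules share, was at 17.04, 16.49, 15.65, 16.35 and 14.48. All 3 genes kept the same order of arrays, LSEC above HAK-1B TEC, then KYN-2 TEC, Hepa1-6 TEC and the cancer cells.

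In Hepa1-6 TEC the chains were lower than in LSEC by ratios of 4.18 for H2-K1, 3.30 for H2-D1 and 2.62 for B2m. In the other TECs no chain was past a ratio of 2 by the probe used, although H2-K1 in KYN-2 TEC was close to it (1.99). The second B2m probe gave log2 ratios of -0.42, -1.46 and -1.16, past a ratio of 2 in KYN-2 TEC too. The second H2-K1 probe gave log2 ratios of -0.96, -2.25 and -1.28 in the TECs and -4.14 in Hepa1-6 cells, where the probe used gave -7.05. Both probes of H2-K1 thus had the same order in the TECs, with the second past a ratio of 2 in KYN-2 TEC, and they differed in the size of the gap to the cancer cells. The H2-K1, H2-D1 and B2m probes lie at chr17:34133055-34133114, chr17:35403886-35403945 and chr2:121978401-121978460 of mm9.

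Peptide transport and loading genes were closer to LSEC in some TECs and varied with the probe. Tap1, 1 subunit of the peptide transporter, was at 11.16 in LSEC and at 11.24, 10.95 and 11.13 in the TECs, and the sign of its ratio in KYN-2 TEC turned with scaling to the 75th percentile (0.033). Tap2, the other subunit, was at 13.86 in LSEC and at 13.26, 12.36 and 12.80 in the TECs, with log2 ratios of -0.59, -1.50 and -1.06. By the probes used Tap1 was close to LSEC and Tap2 was lower, but both depended on the probe. The other Tap1 probe gave log2 ratios of 0.16, -0.91 and 0.09, and the other Tap2 probe, not well above background in LSEC and KYN-2 TEC, gave 0.67, -0.97 and -0.61. Tapbp, which holds the transporter to the heavy chain, had log2 ratios of 0.34, -0.52 and -0.62. Its other probe gave 0.39, -1.20 and 0.096, so its sign in KYN-2 TEC turned with the probe.

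The immunoproteasome subunits replace their constitutive counterparts under interferon and cut peptides for class I. Psmb8 was at 12.56 in LSEC and at 13.18, 12.81 and 12.76 in the TECs, above LSEC in every TEC by less than a ratio of 2. Psmb9 was at 13.29, 12.82, 12.41 and 12.67, and Psmb10 at 14.98, 14.62, 14.49 and 13.96 in LSEC and the TECs. Both lay below LSEC in all 3 TECs, although Psmb10 in HAK-1B TEC turned to 0.10 with scaling to the 75th percentile. The 7 constitutive beta subunits had medians of 0.19, 0.43 and 0.43 in the TECs. Of these Psmb2 had log2 ratios of -0.79, -1.22 and -1.31 and Psmb7 had 0.55, 0.65 and 1.98.

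Between tumor lines, the members of the 3 TECs could be compared on 1 slide. Hepa1-6 TEC was past a ratio of 2 below both xenograft TECs for 1 of 39 members, H2-K1 (11.1% of all genes), and above both for 1, Oas1a (16.5%). H2-K1 was 2.97-fold below HAK-1B TEC and 2.10-fold below KYN-2 TEC. The second H2-K1 probe was at 15.23, 13.95 and 14.92 in the TECs, short of a ratio of 2 against KYN-2 TEC. By sign alone 18 of 39 members were lower in Hepa1-6 TEC than in both xenograft TECs, beside 38.3% of all genes, and 6 were higher, beside 42.3%. The lower members were 12 of 30 antiviral and 6 of 9 class I genes, and all 6 higher members were antiviral. Against the mean of both xenograft TECs the median difference was -0.38 for class I and -0.11 for antiviral members, beside 0.023 over all genes.

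HAK-1B TEC was above KYN-2 TEC by sign for 9 of 9 class I members and for 19 of the 29 antiviral members flagged present on either array, beside 51.5% of all genes. It was below for 0 class I and 10 antiviral members, beside 48.4% of all genes. The differences had a median of 0.42 for class I and 0.17 for antiviral members. Those of single antiviral genes went both ways, from -1.41 for Oasl1 to 0.96 for Mx1, and those of class I ran from 0.11 for Tap1 to 0.96 for Tapbp. The SD over the 3 TECs had a median of 0.33 for antiviral and 0.45 for class I members, against 0.56 over all genes. The value over all genes took in genes near background on some arrays, unlike nearly all members. No SD was taken over genes as bright as the members. With 1 array a line no difference between lines has a replicate check, and tumor line and host strain cannot be told apart.

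**Figure D4:**
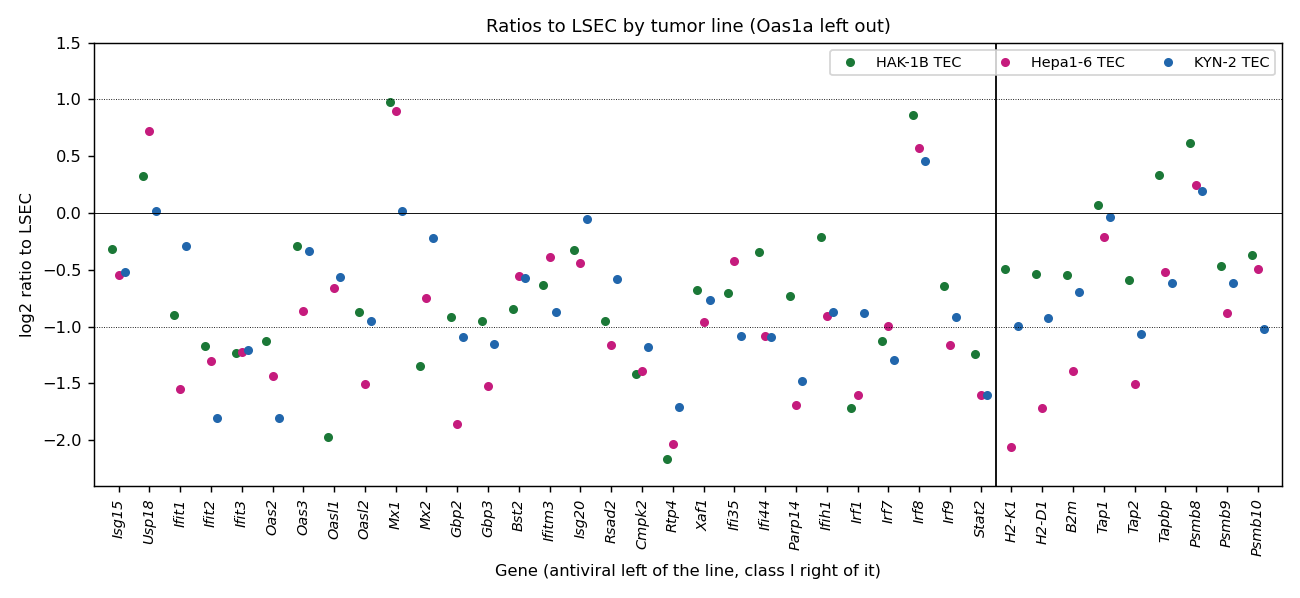
Log2 ratio to LSEC of 38 members in the 3 TECs, 1 point an array, with dotted lines at a ratio of 2. Oas1a is left out because 2 of its values were not well above background. For H2-K1, H2-D1, B2m and Tap2 the Hepa1-6 TEC point is lowest and the HAK-1B TEC point highest. Antiviral genes such as Gbp2, Gbp3, Oasl2 and Parp14 have the same order.

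Cultured Hepa1-6 cells held most members at far lower levels than LSEC. Lower by a ratio of 2 were 36 of 39 members, 27 of 30 antiviral and 9 of 9 class I genes, beside 31% of all genes and 33.4% of genes present on LSEC. Higher were 2 members, Usp18 and Oas1a, beside 28.2% of all genes, and Isg20 had a log2 ratio of 0.36. The median log2 ratio was -4.89 for antiviral and -2.78 for class I members. Not well above background in the cancer cells were 10 antiviral members, Ifit1, Ifit3, Oas2, Oas3, Oasl2, Mx1, Mx2, Gbp2, Rsad2 and Ifi44. Their bounds ran from at least 4.56-fold lower for Oas3 to at least 164-fold lower for Oas2, and with these bounds the antiviral median was -3.74.

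The other 26 lower members were well above background in the cancer cells, from a ratio of 2.66 for Bst2 to 216 for Irf7, with a median of 9.10. The class I genes all stayed well above background there. LSEC and the cultured line differ in cell type, strain and growth outside the body, which cannot be told apart.

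Hepa1-6 TEC was past a ratio of 2 above Hepa1-6 cells for 35 of 39 members (26.1% of all genes) and below for 1, Oas1a (22.5%). The medians of these differences were 4.13 for antiviral and 2.55 for class I members. Closest to each other were Bst2, at 13.14 in Hepa1-6 TEC and 12.29 in the cells, and Isg20, at 10.33 and 11.13, and Usp18, at 11.12 and 11.68. For the class I genes the gap was smallest for H2-D1 (1.06) and B2m (1.17).

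The pathway around the members was read from lists of the same kind. Of 11 interferon ligands on the array, 0 were past a ratio of 2 in all 3 TECs in either direction, and 6 were well above background in LSEC. Ifng was at 7.88 in LSEC and at 6.99, 5.91 and 6.60 in the TECs, and Ifnb1 at 6.43 in LSEC and at 5.53, 6.31 and 9.01. So interferon-gamma transcript was lower in every TEC, and interferon-beta transcript stood out in KYN-2 TEC, with a log2 ratio of 2.58.

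Of 9 receptors and kinases, Jak1, the kinase bound to all interferon receptors, was past a ratio of 2 lower in all 3 TECs, at 15.03 in LSEC and 13.28, 12.95 and 13.67 in the TECs. Ifnlr1, a receptor for interferon-lambda, was well above background in HAK-1B TEC (9.57), Hepa1-6 TEC (9.23) and Hepa1-6 cells (9.45) and not in LSEC or KYN-2 TEC. It was at least 29.7-fold higher in HAK-1B TEC and at least 23.5-fold higher in Hepa1-6 TEC than in LSEC. Of the TECs with Ifnlr1, Hepa1-6 TEC had a high Oas1a signal, and in HAK-1B TEC Oas1a was not well above background. Whether Ifnlr1 had a part in the Oas1a signal was not tested.

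Among 7 STATs and negative regulators, Socs1, a feedback inhibitor of Janus kinases, was at 10.59 in LSEC and at 9.15, 8.58 and 9.41 in the TECs, past a ratio of 2 in all 3. Of 14 nucleic acid sensors and adaptors 0 passed in all 3 TECs. Aim2, a sensor of cytosolic DNA, had log2 ratios of 1.44, 1.89 and 0.51, and Tlr3, a sensor of double-stranded RNA, was at 7.45 in LSEC and at 6.46, 5.61 and 6.45 in the TECs.

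The targets of interferon-gamma had lower median log2 ratios than the antiviral and class I members. Of 13 genes on the array 6 were past a ratio of 2 lower in all 3 TECs, beside 8.27% of all genes, and 0 higher, beside 5.55%. The 13 genes had median log2 ratios of -1.55, -1.44 and -1.31. Not all went the same way, with 11, 12 and 10 of 13 below LSEC and 1 past a ratio of 2 higher in KYN-2 TEC. Iigp1, an immunity-related GTPase, was at 14.30 in LSEC and at 9.85, 11.46 and 12.69 in the TECs, and Irgm2, of the same family, at 11.89, 9.26, 9.72 and 9.56. The difference between these targets and the members was not tested. Of 11 other class I and peptide-processing genes 0 passed in all 3 TECs, with medians of -0.60, -0.92 and -0.72. H2-T23, a non-classical class I gene, was at 16.98 in LSEC and at 16.25, 15.07 and 15.97 in the TECs, in the same order as the classical chains. Cd1d1, which presents lipids, had log2 ratios of -1.73, -0.53 and -1.48.

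**Figure D5:**
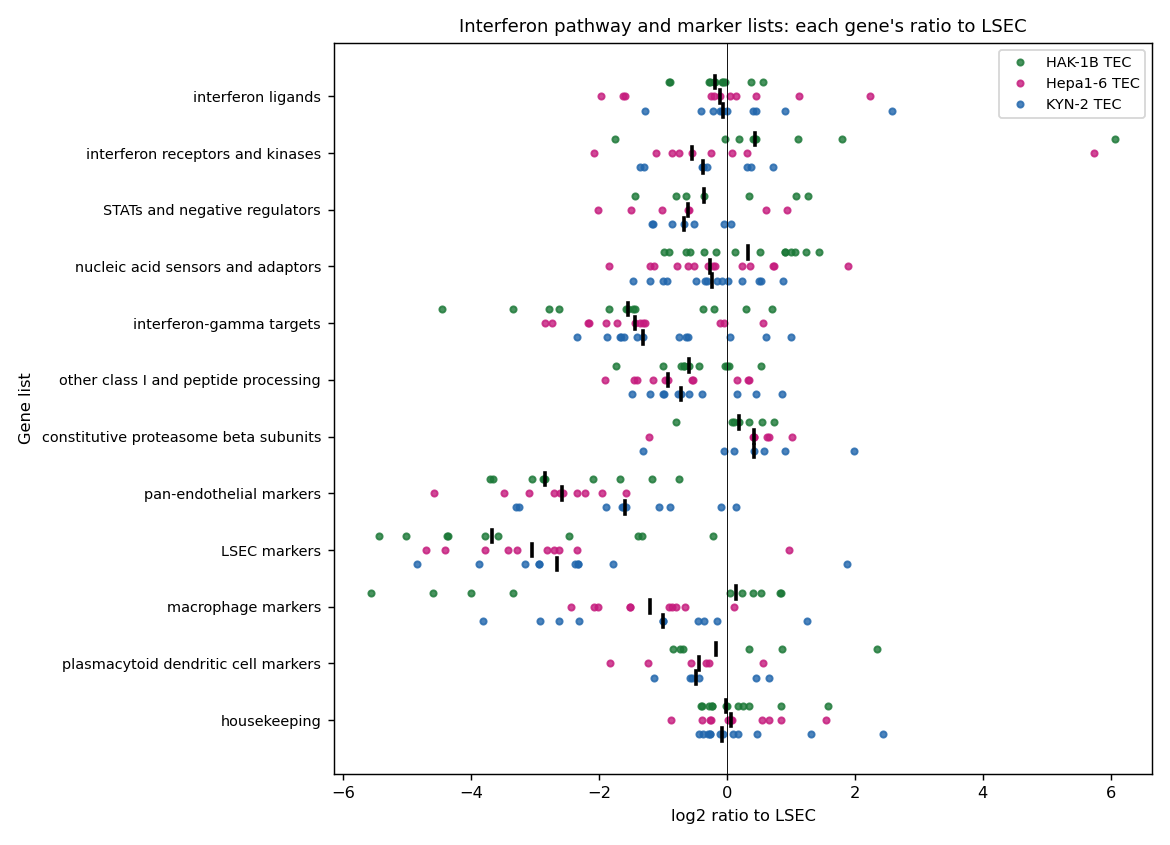
Log2 ratio to LSEC of each gene of the interferon pathway, marker and housekeeping lists in the 3 TECs, 1 point a gene, with black bars at the medians. The interferon-gamma targets have medians of -1.55, -1.44 and -1.31, and the pan-endothelial and LSEC markers lie lower still.

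Pan-endothelial and LSEC markers were mostly lower in the TECs, whereas other lists of cell type markers went different ways. Pan-endothelial markers were lower by a ratio of 2 for 9, 10 and 7 of 10 genes in the TECs, beside 18%, 22.1% and 18.3% of all genes. The log2 of the summed signal of these markers was 18.70 in LSEC and 15.91, 15.94 and 16.95 in the TECs. LSEC markers were lower for 9 of 10 genes in each TEC, with a summed signal of 19.59 in LSEC and 16.61, 16.41 and 16.81 in the TECs. Cdh5, the cadherin of endothelial junctions, and Stab2, a scavenger receptor of sinusoids, were read on all endothelial arrays and were not well above background in Hepa1-6 cells. Well above background in these cells were 2 of 10 pan-endothelial markers, Egfl7 and Esam, and 2 of 10 LSEC markers, Stab1 and Gata4. Fewer cells of a type and less RNA per cell cannot be told apart in these samples.

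Macrophage markers were also high on the LSEC array. They were lower by a ratio of 2 for 4, 5 and 5 of 10 genes in the 3 TECs, beside 18%, 22.1% and 18.3% of all genes. The log2 of the summed signal of these markers was 19.53 in LSEC and 19.02, 18.24 and 18.35 in the TECs. The list went both ways. Clec4f, a marker of Kupffer cells, was at 17.07 in LSEC and at 11.50, 15.05 and 14.45 in the TECs, whereas Cd68, a lysosomal protein of macrophages, had log2 ratios of 0.85, 0.12 and 1.25. In HAK-1B TEC 6 of the 10 macrophage markers were above LSEC, with a median log2 ratio of 0.14 over the list. Of the plasmacytoid dendritic cell list, which shares Bst2 and Irf8 with the members, 0 of 6 were past a ratio of 2 in all 3 TECs, and its summed signal was 17.26 in LSEC and 16.39 to 16.71 in the TECs. NK and cytotoxic cell markers were higher by a ratio of 2 for 4, 8 and 5 of 8 genes. Neutrophil markers were so for 8, 8 and 5 of 10, beside 17.5%, 25% and 16.9% of all genes. Stellate cell and fibroblast markers had medians of 0.85, 2.88 and 2.02, and B cell markers of 0.45, -1.20 and 0.37. T cell markers had medians of 0.093, -0.84 and -0.15, and conventional dendritic cell markers of -0.22, 0.42 and -0.45. The 12 housekeeping genes had median log2 ratios of -0.0096, 0.058 and -0.081. The part of these cell types in the levels of the members was not tested.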

How the data were processed

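The 5 arrays measured gene expression in LSECs, TECs of 3 tumor lines and cultured Hepa1-6 cells. The authors amplified and labeled RNA with Cy3, hybridized it to the array and read each spot with Agilent Feature Extraction (9.5.1.1 per the submitters' processing notes, 10.7.1.1 per the file headers). The intensity of each spot was deposited on a linear scale, background-subtracted (gProcessedSignal) and as spot mean and local background, with other columns of deposited flags of 0 or 1. The authors also deposited a table of normalized intensity, used as an alternative, linear, with the same median log2 value (5.43) on each array and with the arrays normalized together not stated.

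Control spots were left out, spots of 1 probe were averaged, and quantile normalization of log2 signals took in all 5 arrays (the methods describe pairs). Genes flagged present on at least 1 array compared were kept, without 4460 lincRNA probes. A total of 22 members had more than 1 probe, and the brightest was used. Of 19 other probes well above background on the 4 endothelial arrays, 11 had the same sign as the probe used in all 3 TECs. All 39 probe accessions were found in the RefSeq gene table. No array had a saturated probe, and the median coefficient of variation of repeated spots was 2.53% to 2.93% on each array, a measure within an array only. The number of arrays limits the precision.

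The members and lists were chosen with earlier results of these data known. Named beside the members are, of each pathway list, the 2 genes with the largest mean absolute log2 ratio, and markers that bear on a result. A gene that this rule names is not reported here. With 1 array a condition, members were counted by a rule of size. The 3 TECs were also set against LSEC with limma 3.58.1 (R 4.3.3), with p-values adjusted over all genes by Benjamini-Hochberg. The limma step was also run on simulated arrays with the same noise on each of them, LSEC included. That run cannot check how LSEC varies, and its outcome is not given. The remaining work ran in Python 3.11.15 with numpy 2.4.6, pandas 2.3.3, scipy 1.17.1 and matplotlib 3.10.9. The alternatives tried were 75th-percentile scaling, quantile normalization by pair or over the 4 endothelial arrays, normexp with an offset of 50, the deposited table, the mean over all probes of a gene, no filter on flags, probes well above background on every array compared, each TEC left out, and a ratio of 1.5.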

Additional observations from a re-analysis of the deposited data

Results flagged for a closer look

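Oas1a was past a ratio of 2 in opposite directions between tumor lines. Its log2 ratio to LSEC was 4.79 for Hepa1-6 TEC, -2.84 for HAK-1B TEC and -2.84 for KYN-2 TEC. Both negative values come from probes not well above background. The difference between the lines was not tested, since each line had 1 array.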

How the results depend on the processing

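All antiviral and class I medians stayed below 0, and no value past a ratio of 2 turned its sign under any alternative run. Of the counts and medians under alternatives 159 stayed close to the reported value and 17 moved. Close meant within a ratio of 1.5 for a count and within the SD over the 3 TECs for a median. The 159 include counts that were 0 in every setting, such as those of limma, so the tally is a loose measure. With scaling to the 75th percentile the antiviral medians were -0.68 for HAK-1B TEC, -0.72 for KYN-2 TEC and -4.68 for Hepa1-6 cells, the class I medians -0.19, -0.34 and -2.49, and 1 member was higher by a ratio of 2 in HAK-1B TEC. With the mean over all probes, the antiviral medians were -1.25 in Hepa1-6 TEC and -3.61 in Hepa1-6 cells, the class I median was -1.17 in Hepa1-6 TEC and, for KYN-2 TEC, -0.92, and 2 members were higher in Hepa1-6 TEC. The antiviral median of Hepa1-6 cells was -3.60 with normexp, -4.75 with the deposited table and -3.19 with probes well above background on every array compared, which leaves out the dimmest probes. For the other changes the cause was not tested. A background of genes present on LSEC was added after the data were seen. Members lower in all 3 TECs by a ratio of 2 numbered 6, beside 8.27% of all genes, and 15 with a ratio of 1.5, beside 13.9%. Leaving out 1 TEC array gave 7 to 11, and 11 without HAK-1B TEC, which added Gbp2, Gbp3, Ifi44, Parp14 and Tap2. A rule over fewer arrays is looser for every gene, and no share of all genes was taken for it. In 7 of 8 other settings the count was 6 or more, and with scaling it was 5, without Oas2. With the mean over all probes 4 of the 6 were shared, with Mx2 and the class I gene Psmb9 in place of Oas2 and Stat2. Both gains rest on dim probes. The second Psmb9 probe was not well above background on any array, and the second Mx2 probe on no TEC array. The Psmb9 probe used gave log2 ratios of -0.47, -0.88 and -0.62. The members lower by a ratio of 2 numbered 9 to 12 in HAK-1B TEC, 19 to 22 in Hepa1-6 TEC, 10 (with scaling) to 16 in KYN-2 TEC and 26 (probes above background) to 36 in Hepa1-6 cells. With limma 0 members passed in every setting. Among probes well above background on every array compared, 65.2% of calls over all genes in Hepa1-6 TEC and 39.9% in Hepa1-6 cells were lower, against 46.9% and 52.4%. Quantile normalization by pair was not run for limma and normalization over the endothelial arrays not for Hepa1-6 cells, since neither gives these values. A block for slide could not be fitted, since each slide held only LSEC, TECs or cancer cells. No paired analysis was possible because there was a single array for every condition. Probes near background limit 10 antiviral members in Hepa1-6 cells and Oas1a in the xenograft TECs.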
